A study of Mus musculus with 95 samples.

Results

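The genes described are 5 genes of GABA signalling and GABA removal, out of 55471 features counted in the series: Gabbr1 and Gabbr2, which encode the subunits of the GABA-B receptor, Slc6a11, which encodes a GABA transporter, and Abat and Maob, which encode enzymes of GABA breakdown and of an alternative route of GABA synthesis. They were chosen by name, with earlier results of these data known, and each of the 5 symbols matched 1 feature of the count table. GABA is the main inhibitory transmitter of the brain, and most projection neurons of the nucleus accumbens release it. Astrocytes respond to it through the GABA-B receptor, a G protein-coupled receptor that works as a heterodimer: Gabbr1 binds GABA, while Gabbr2 couples to the G protein and brings Gabbr1 to the cell surface. They also clear GABA from the extracellular space through transporters, of which Slc6a11 (GAT3) is typical of astrocytes, and degrade it by transamination through Abat, and they can make GABA from putrescine in a route that uses Maob.

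RNA was sequenced from nucleus accumbens punches of male and female mice that all carried the transgene Tg(Aldh1l1-EGFP/Rpl10a)JD130Htz of a B6;FVB stock, in which Aldh1l1, an astrocyte gene, drives a ribosomal protein tagged with EGFP. Of 49 mice, 46 gave an IP library (RNA on the tagged ribosomes, pulled down by translating ribosome affinity purification) and an input library (RNA of the whole punch, saved before the pull-down), and 3 gave the input alone. Dependent mice had 5 rounds of chronic intermittent ethanol (CIE) within a schedule of voluntary drinking from a choice of bottles (2BC), non-dependent mice had 2BC alone, and naive mice had no ethanol; the age of the mice is not given in the sources used here. The comparisons below hold IP libraries of 16 dependent, 13 non-dependent and 15 naive mice and input libraries of 16 dependent, 15 non-dependent and 16 naive mice, from batches I, J, K and L, as the labels name them.

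The table held between 14314236 and 27146790 counts in an IP library and between 12803108 and 23948193 in an input library, and levels are given as CPM, the count of a gene scaled to a library total of 1000000. All 11 astrocyte markers were enriched in IP, and all 10 general neuron markers, 8 medium spiny neuron markers, 7 interneuron markers, 7 microglia markers and 6 endothelial markers were depleted, but none of these markers was at 0. Of 7 oligodendrocyte markers, 2 were enriched in IP and 5 depleted. Of all 17191 genes tested between the fractions, 38.5% were called higher in IP and 45.4% lower. In such bulk libraries, fewer cells of a type and less RNA per cell cannot be told apart. Batch I holds no naive mouse, batch L no non-dependent mouse, and the dependent mice of batch K are males, so the batches do not carry the comparisons equally. In 1 non-dependent mouse, K15, the IP and input libraries did not vary together, and leaving it out ended and added no call of the 5 genes. The labels do not say that mice of a group came from separate litters or cages, and p-values measure the spread between these mice.

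All 5 genes were higher in IP than in the input of the same mouse, from a slight enrichment of Gabbr1 to a strong one of Slc6a11 and Maob. The mean level of Slc6a11 was 254.2 ± 69.7 CPM in IP against 37.4 ± 15.2 CPM in input (SD, n = 46 mice), and IP exceeded input in 46 of 46 mice. Maob, an outer mitochondrial membrane enzyme that oxidises monoamines, averaged 127.0 ± 27.8 CPM in IP against 21.8 ± 7.55 CPM in input, again higher in 46 of 46 mice. The fitted log2 fold change was 2.96 ± 0.05 (SE) for Slc6a11 and 2.73 ± 0.05 (SE) for Maob, next to a median of 3.10 for the 11 astrocyte markers. These 2 genes therefore stood near the enrichment of the markers of the purified cells.

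Abat, the mitochondrial GABA transaminase, lay between, with 586.2 ± 71.3 CPM in IP against 209.3 ± 34.1 CPM in input and a log2 fold change of 1.65 ± 0.04 (SE), higher in 46 of 46 mice. Gabbr2 averaged 171.6 ± 60.2 CPM in IP against 85.7 ± 21.2 CPM in input, a log2 fold change of 1.12 ± 0.08 (SE), and was higher in IP in 43 of 46 mice. Gabbr1 averaged 534.2 ± 90.6 CPM in IP against 441.1 ± 52.5 CPM in input, a log2 fold change of 0.42 ± 0.04 (SE), and was higher in IP in 38 of 46 mice. All 5 passed an adjusted p of 0.05 in edgeR's quasi-likelihood test with the mouse as a block (adjusted p between 9.59e-53 for Maob and 2.85e-15 for Gabbr1). Of 17191 genes tested, 83.9% passed in either direction and 38.5% were higher in IP, so a pass alone says little and the size of the enrichment carries the result.

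**Figure D1:**
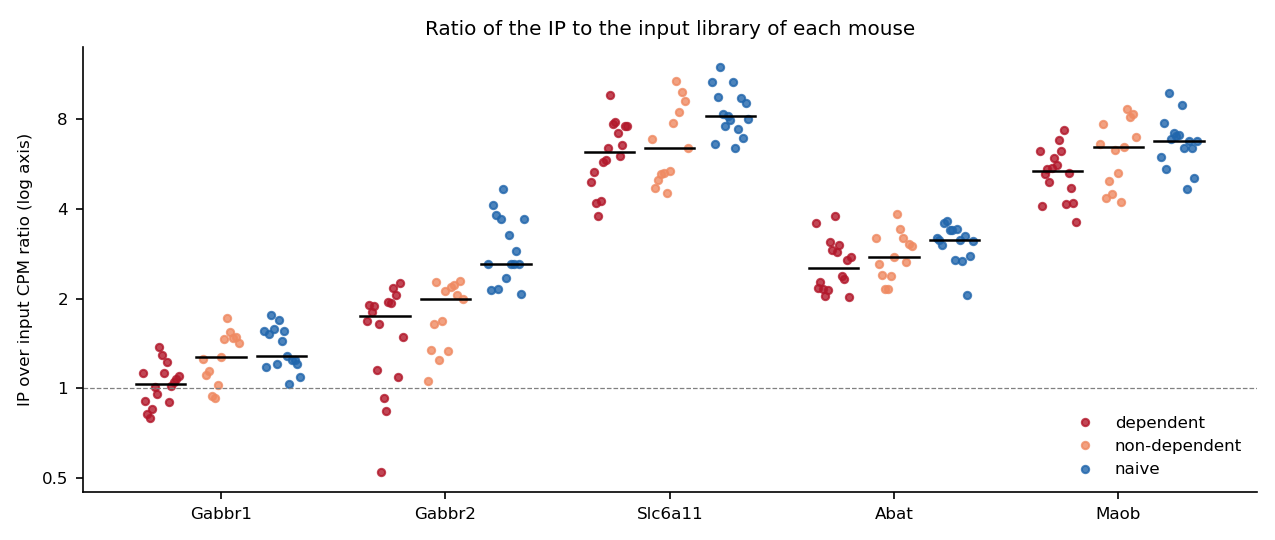
IP over input ratio of CPM (log axis) of each of the 5 genes, with 1 point per mouse of batches I to L in dependent, non-dependent and naive mice and a bar at the median. The median ratio of Gabbr1 is 1.03 in dependent mice, close to the dashed line at equality, while that of Slc6a11 is between 6.21 and 8.19 in the 3 treatments. CPM is scaled to library totals alone, whereas the fitted fold changes use a further normalization (TMM), so equality here is not equality in the fit.

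Divided by exon length, the 5 genes ranked differently in the 2 fractions. In IP, Abat had the highest level, 75.7 ± 9.20 CPM per kb (SD, n = 46), followed by Gabbr1 at 68.8 ± 11.7, Slc6a11 at 50.3 ± 13.8, Maob at 45.6 ± 9.96 and Gabbr2 at 25.7 ± 9.01 CPM per kb. Abat exceeded Gabbr1 in 36 of 46 IP libraries, Gabbr1 exceeded Slc6a11 in 39, Slc6a11 exceeded Maob in 33 and Maob exceeded Gabbr2 in 44. Mean levels of Abat and Gabbr1, and of Slc6a11 and Maob, lay within 1 SD of each other. The order of Slc6a11 and Maob was not the same in each treatment: Slc6a11 averaged 47.5 and Maob 44.5 CPM per kb in dependent mice, 47.85 and 48.5 in non-dependent mice, and 56.6 and 45.6 in naive mice. In input, Gabbr1 led with 57.2 ± 6.72 CPM per kb (SD, n = 49), above Abat at 27.2 ± 4.42, Gabbr2 at 13.04 ± 3.22, Maob at 8.01 ± 2.75 and Slc6a11 at 7.87 ± 3.78 CPM per kb. There Gabbr1 exceeded Abat in 49 of 49 libraries, while Maob and Slc6a11 could not be ranked, with Maob above Slc6a11 in 30.

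In the astrocyte fraction, 3 of the 5 genes, Gabbr2, Gabbr1 and Abat, were lower in dependent than in naive mice. None of the 5 was higher, and Slc6a11 and Maob did not pass the test. Across all 20580 genes tested in that comparison, 4.49% passed an adjusted p of 0.05 in edgeR's quasi-likelihood test with 2.68% higher and 1.81% lower. The median log2 fold change of the 5 genes was -0.30, that of Abat, against 0.0016 over all genes tested. Because the 5 genes were chosen with earlier results of these data known, these values do not test them as a set.

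**Figure D2:**
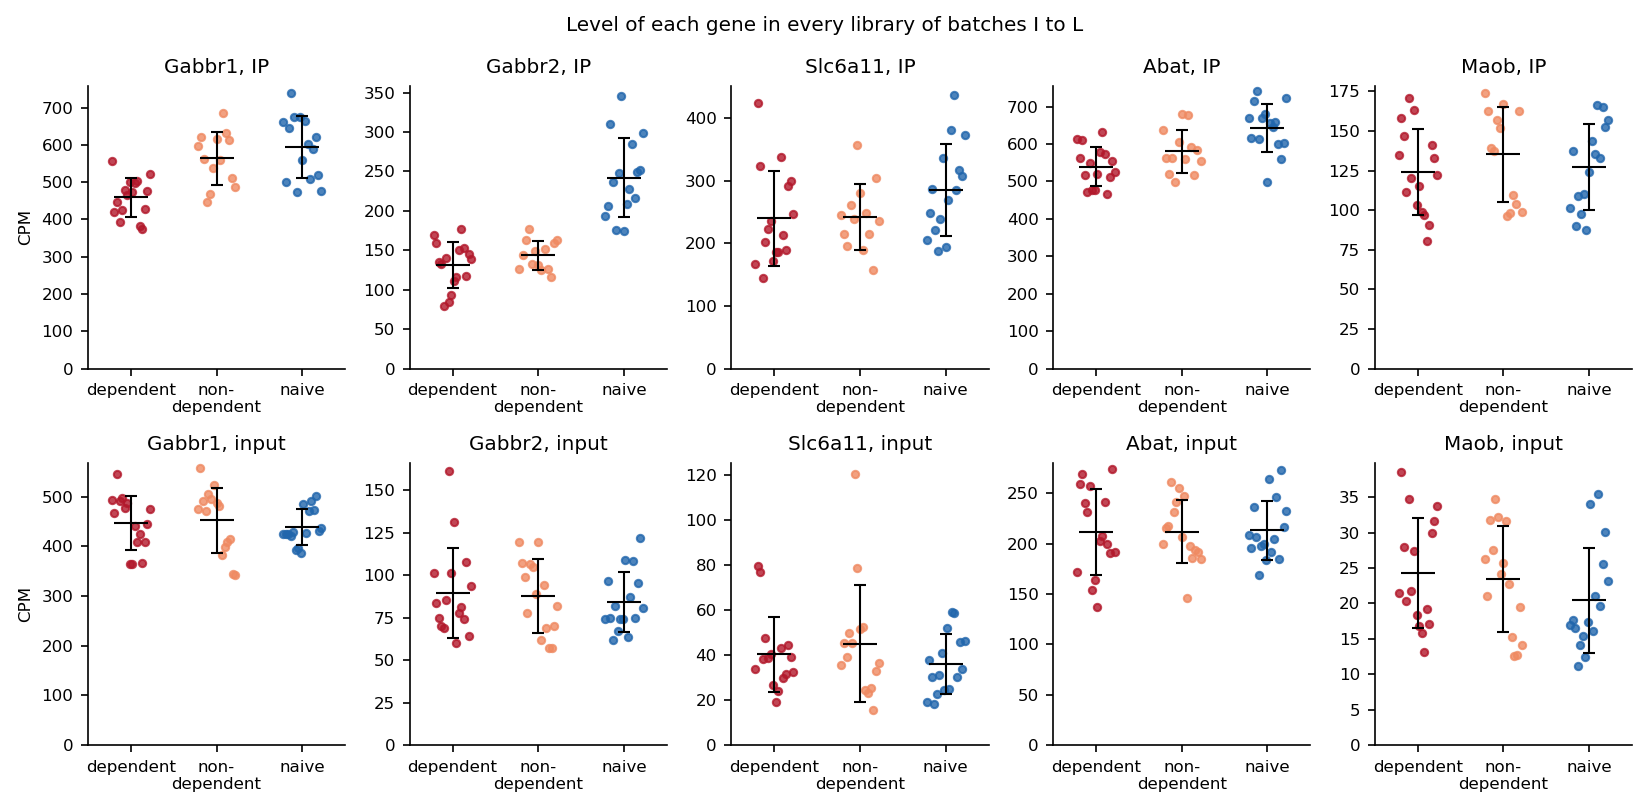
CPM of each gene in every IP library (upper row) and input library (lower row) of batches I to L, for dependent, non-dependent and naive mice; bars show the mean and error bars the SD. In IP, Gabbr2 is at most 176.4 CPM in dependent mice and 177.0 CPM in non-dependent mice and at least 174.0 CPM in naive mice, while the input groups overlap for all 5 genes.

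Gabbr2 lies on the minus strand at chr4:46662305-46991873 (GRCm38; Ensembl ENSMUSG00000039809, protein coding). Gabbr1 lies on the plus strand at chr17:37045966-37075067 (ENSMUSG00000024462). Neither gene overlaps another annotated gene. Their promoters, from 250 bases before to 50 bases after the RefSeq start, are shown because both receptor genes were lower in IP of dependent mice. The sequences are those of RefSeq on GRCm38.p6 in the direction of transcription, for Gabbr2 chr4:46991665-46991964 on the minus strand and for Gabbr1 chr17:37045716-37046015 on the plus strand, and capitals mark the letters GGGCGG (GC box) on either strand. The RefSeq start of Gabbr2, at position 46991714, lies 159 bases downstream of the start of the gene as given above from Ensembl, whereas both starts of Gabbr1 are the same.
Gabbr2: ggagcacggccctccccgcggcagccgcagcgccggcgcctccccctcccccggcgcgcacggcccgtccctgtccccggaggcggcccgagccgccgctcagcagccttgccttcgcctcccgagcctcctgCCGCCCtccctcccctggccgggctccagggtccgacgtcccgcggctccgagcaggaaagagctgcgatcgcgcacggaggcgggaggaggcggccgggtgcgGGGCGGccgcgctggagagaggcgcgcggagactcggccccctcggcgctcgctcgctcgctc
Gabbr1: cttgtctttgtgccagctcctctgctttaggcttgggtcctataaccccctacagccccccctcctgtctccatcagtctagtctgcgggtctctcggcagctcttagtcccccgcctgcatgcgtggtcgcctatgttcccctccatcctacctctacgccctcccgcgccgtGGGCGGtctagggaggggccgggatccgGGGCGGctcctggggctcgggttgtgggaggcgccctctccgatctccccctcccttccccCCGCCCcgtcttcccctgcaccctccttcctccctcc

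The Gabbr2 promoter is 80.3% G and C, a share above that of 99.1% of the 32851 mouse promoters of this length, and the Gabbr1 promoter is 67.3%, above 86.2% of them. GGGCGG occurs 2 times in the Gabbr2 window and 3 times in the Gabbr1 window, on either strand, and is present in 35.7% of all promoters. The window of Slc6a11 (72.3% G and C) holds it 4 times. The letters TGACG, the core of a cyclic AMP response element, were found on neither strand in the 3 windows and occur in 20.8% of all promoters. The same held for the E box CACGTG, which 7.15% of all promoters hold, for the TATA box letters TATAAA, present in 13.6%, and for CCAAT, present in 37.4%. These matches describe the letters and no more.

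Gabbr2 showed the largest difference of the 5 genes. In IP of dependent mice it ran from 78.95 to 176.4 CPM with a median of 136.8, in non-dependent mice from 116.7 to 177.0 with a median of 143.8, and in naive mice from 174.0 to 345.1 with a median of 236.6 CPM. Thus 15 of 16 dependent and 12 of 13 non-dependent mice lay below the lowest naive mouse, while 5 of 16 dependent mice lay below the lowest non-dependent mouse and 1 of 13 non-dependent mice above the highest dependent one. How many of all genes part the groups to this degree was not counted. Dependent over naive, the log2 fold change was -0.89 ± 0.11 (SE; 95% interval -1.11 to -0.67, a 0.540-fold level; edgeR adjusted p = 8.88e-07), the rank 13 by p of all genes tested. Non-dependent over naive, it was -0.78 ± 0.13 (SE; 95% interval -1.03 to -0.53, a 0.583-fold level; edgeR adjusted p = 0.000864), the rank 6 by p. Gabbr2 was the 1 gene of the 5 called in that comparison, in which 0.428% of genes passed.

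Between dependent and non-dependent mice Gabbr2 did not pass, with a log2 fold change of -0.11 ± 0.11 (SE; 95% interval -0.32 to 0.10; edgeR adjusted p = 0.789). These contrasts share their groups, so the values stand side by side and are not independent of each other. Within batches, the dependent minus naive difference of mean log2 CPM was -1.02 in batch J (4 dependent and 4 naive mice). It was -0.47 in batch K (2 and 4 mice) and -0.93 in batch L (3 and 7 mice). No dependent mouse reached the lowest naive one in batches J and L. The non-dependent minus naive difference was -0.86 in batch J and -0.75 in batch K, the batches that hold both groups, with no overlap in either. Each of these holds 3 non-dependent and 4 naive mice. The share of all genes that separate such small groups was not counted, so a lack of overlap alone says little. The dependent minus non-dependent difference was -0.24 in batch I and -0.16 in batch J. In batch K its sign was the opposite, at 0.28, in 2 dependent and 3 non-dependent mice. Without batch J the non-dependent over naive value was -0.69 and no longer passed (edgeR adjusted p = 0.0721, the highest of 12 alternatives; lowest 3.60e-13).

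**Figure D3:**
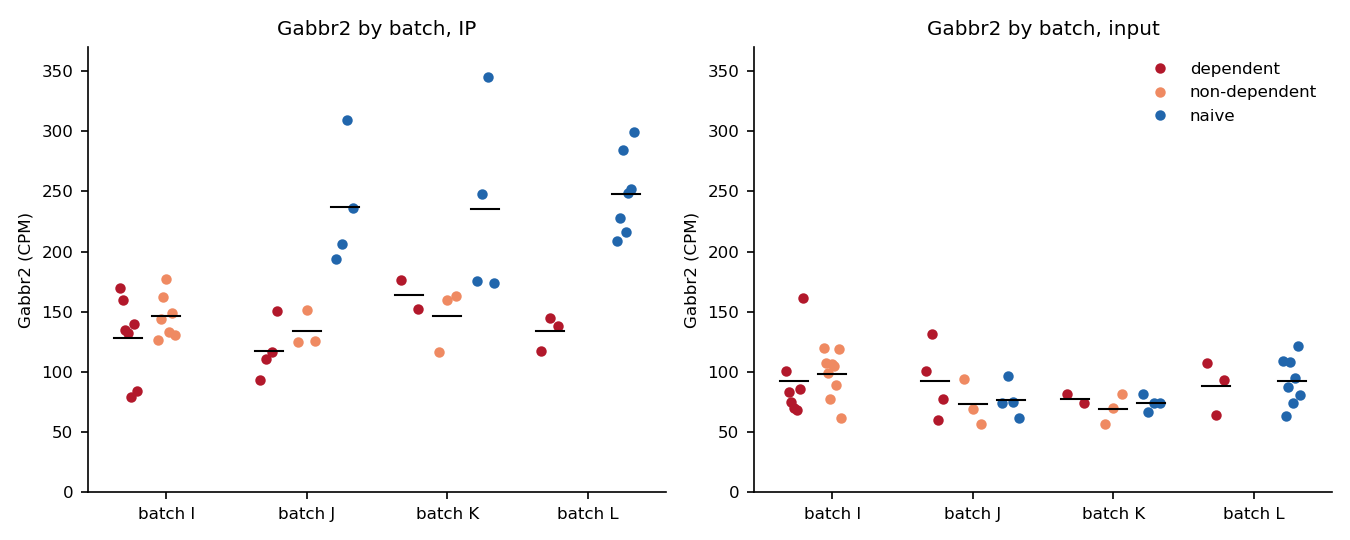
Gabbr2 CPM by batch in IP (left) and input (right), with 1 point per library of dependent, non-dependent and naive mice and a bar at the group mean. In IP the naive mice of batches J and L lie above every ethanol-exposed mouse of their batch, whereas in input the groups overlap in each batch. The share of all genes that separate such small groups was not counted.

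Gabbr1, the subunit that binds GABA, was lower in dependent than in naive mice too, by a smaller fitted amount. In IP it ran from 373.3 to 556.0 CPM with a median of 470.0 in dependent mice, from 445.7 to 685.4 with a median of 562.7 in non-dependent mice, and from 473.5 to 739.7 with a median of 603.3 in naive mice. All 16 dependent mice lay below the naive median and below the non-dependent median, though the ranges overlapped. Dependent over naive, the log2 fold change was -0.41 ± 0.08 (SE; 95% interval -0.57 to -0.25, a 0.753-fold level; edgeR adjusted p = 0.00106). The within-batch differences were -0.37 in batch J, -0.64 in batch K and -0.29 in batch L. That of batch K rests on 2 dependent mice, both males, and 4 naive mice.

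The dependent over non-dependent value of Gabbr1 was near the threshold: -0.26 ± 0.08 (SE; 95% interval -0.41 to -0.11; edgeR adjusted p = 0.0647). In that comparison edgeR called 0 of the 5 genes, against 1.53% of all genes, and 1 of the 5 had an unadjusted p under 0.05. Within batches it was -0.28 in batch I, -0.29 in batch J and -0.40 in batch K (2 dependent and 3 non-dependent mice). The dependent over non-dependent value passed in 3 of 12 alternatives (adjusted p between 0.0308 and 0.438 over the 12; 0.0421 with DESeq2). The non-dependent over naive value was -0.15 ± 0.09 (SE; 95% interval -0.32 to 0.03; edgeR adjusted p = 0.622).

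The balance of the 2 subunits is given as a description. Per kb of exon, Gabbr1 exceeded Gabbr2 in IP by a median of 2.91 times in dependent mice (1.87 to 4.77), 3.71 times in non-dependent mice (2.17 to 4.52) and 2.15 times in naive mice (1.37 to 3.30). In input the median was 4.50 times in dependent, 4.29 times in non-dependent and 4.64 times in naive mice, with overlapping ranges. The ratio follows from the 2 levels above and was not tested on its own.

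Slc6a11, at chr6:114131241-114249952 on the plus strand (GRCm38; ENSMUSG00000030307), takes GABA up into astrocyte processes. In IP it ran from 144.8 to 423.6 CPM with a median of 218.4 in dependent mice, from 156.8 to 357.5 with a median of 238.9 in non-dependent mice, and from 188.2 to 436.5 with a median of 285.4 in naive mice. The groups overlapped widely: 5 of 16 dependent mice and 1 of 13 non-dependent mice lay below the lowest naive mouse, and 1 dependent mouse was at 423.6 CPM. Its log2 fold change was -0.24 ± 0.13 (SE; 95% interval -0.50 to 0.01; edgeR adjusted p = 0.353) for dependent over naive mice. It was -0.19 ± 0.14 (SE; 95% interval -0.47 to 0.09; edgeR adjusted p = 0.717) for non-dependent over naive mice and -0.05 ± 0.12 (SE; 95% interval -0.29 to 0.19; edgeR adjusted p = 0.930) for dependent over non-dependent mice. The intervals leave room for a loss of the size seen for Gabbr1, so no statement of equality can be made.

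Abat, at chr16:8513429-8621568 on the plus strand (GRCm38; ENSMUSG00000057880), converts GABA to succinic semialdehyde. In IP it ran from 465.7 to 631.5 CPM with a median of 537.6 in dependent mice, from 497.6 to 681.1 with a median of 564.1 in non-dependent mice, and from 497.7 to 741.5 with a median of 656.6 in naive mice. All 16 dependent mice lay below the naive median, and 9 of 15 naive mice lay above the highest dependent one. Dependent over naive, the log2 fold change was -0.30 ± 0.07 (SE; 95% interval -0.43 to -0.18, a 0.809-fold level; edgeR adjusted p = 0.00304). The differences within batches were -0.33 in batch J, -0.24 in batch K (2 dependent and 4 naive mice) and -0.30 in batch L.

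The size of the Abat difference held in alternatives in which its call did not: it was -0.30 without batch J (edgeR adjusted p = 0.0531), -0.31 without batch L (0.0519) and -0.32 in batches J and K alone (0.156), and the adjusted p ran from 0.000344 to 0.156 over 12 alternatives. Non-dependent over naive mice differed by -0.24 ± 0.07 (SE; 95% interval -0.38 to -0.09; edgeR adjusted p = 0.156). Dependent and non-dependent mice differed by -0.07 ± 0.06 (SE; 95% interval -0.19 to 0.05; edgeR adjusted p = 0.766).

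Maob, at chrX:16709282-16817366 on the minus strand (GRCm38; ENSMUSG00000040147), varied more with batch than with treatment. In IP it ran from 80.25 to 170.9 CPM with a median of 121.2 in dependent mice, from 96.05 to 173.7 with a median of 139.1 in non-dependent mice, and from 87.37 to 166.4 with a median of 132.7 in naive mice. The 3 ranges nearly coincided. By batch, the mean level was 149.5 ± 18.9 CPM in batch I (SD, n = 14) and 144.9 ± 14.9 in batch L (n = 10), but 105.0 ± 12.8 in batch J (n = 11) and 106.1 ± 24.8 in batch K (n = 9). Batch alone accounted for 48.0% of the variance of its log2 CPM in IP and 44.4% in input, against 3.69% in IP and 15.8% in input for treatment and sex.

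With batch in the fit, Maob differed by -0.18 ± 0.08 (SE; 95% interval -0.34 to -0.03; edgeR adjusted p = 0.197) between dependent and naive mice. It differed by -0.14 ± 0.07 (SE; 95% interval -0.29 to 0.00; edgeR adjusted p = 0.467) between dependent and non-dependent mice and by -0.04 ± 0.09 (SE; 95% interval -0.21 to 0.13; edgeR adjusted p = 0.920) between non-dependent and naive mice. For Gabbr2, by contrast, treatment and sex alone accounted for 72.5% of the variance in IP and batch alone for 26.9%, shares that overlap because the treatments are not balanced over batches.

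**Figure D4:**
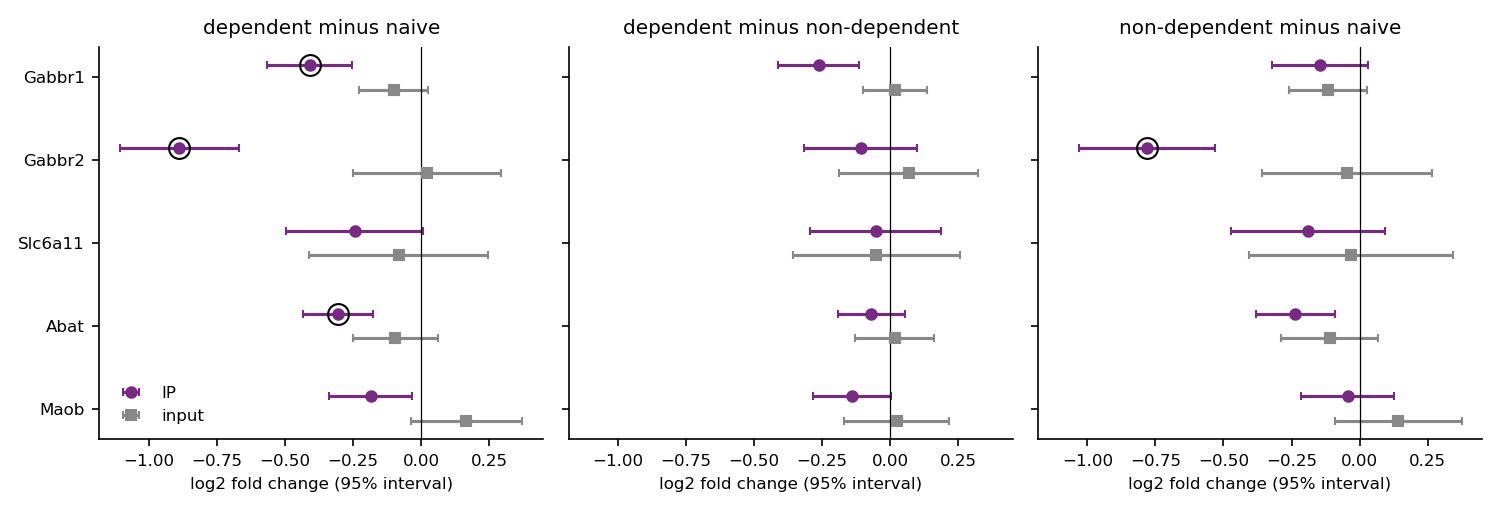
Log2 fold change with its 95% interval of each gene in IP (circles) and input (squares) for the 3 treatment comparisons; a black ring marks an adjusted p at or under 0.05 in edgeR's quasi-likelihood test. Rings surround Gabbr2, Gabbr1 and Abat in IP of dependent over naive mice and Gabbr2 in IP of non-dependent over naive mice, and no input value.

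In the whole punches none of the 5 genes passed in any treatment comparison over both sexes with edgeR, DESeq2 or limma voom. In these comparisons 0 of the 5 had an unadjusted edgeR p under 0.05. Within females Maob and within males Abat had such values, the lowest being 0.0182 for Abat (edgeR, non-dependent over naive, adjusted p = 0.687), and none passed. Over both sexes, 2.16% of 20897 genes in input passed for dependent over naive mice. The share was 0.378% for dependent over non-dependent mice and 0.12% for non-dependent over naive mice. Gabbr2 in input ran from 59.78 to 161.1 CPM with a median of 82.6 in dependent mice, from 56.86 to 119.7 with a median of 89.0 in non-dependent mice, and from 62.11 to 121.7 with a median of 77.9 in naive mice. Its dependent over naive log2 fold change in input was 0.02 ± 0.14 (SE; 95% interval -0.25 to 0.29; edgeR adjusted p = 0.979), an interval that does not reach the value of IP.

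For Gabbr1 the dependent over naive value in input was -0.10 ± 0.07 (SE; 95% interval -0.23 to 0.03), and for Abat -0.09 ± 0.08 (SE; 95% interval -0.25 to 0.06). Slc6a11 stood at -0.08 ± 0.17 (SE) and Maob at 0.17 ± 0.10 (SE), with edgeR adjusted p between 0.544 and 0.979 over the 5 genes. Several input values lay close to 0 and changed sign with the processing.

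The 44 mice of these batches with both libraries allowed a direct test of IP against input. For dependent over naive mice, the difference in IP minus the difference in input was -0.92 ± 0.18 (SE; 95% interval -1.27 to -0.57; edgeR adjusted p = 0.00306) for Gabbr2. Gabbr1 followed at -0.31 ± 0.08 (SE; 95% interval -0.46 to -0.15), with an adjusted p of 0.04999, at the threshold itself. Thus 2 of the 5 genes, which were chosen with earlier results of these data known, passed, where 0.493% of 17233 genes did. The same shift had a median of -0.14 for the 11 astrocyte markers and -0.13 for the 10 general neuron markers, none of them called, against -0.01 over all genes tested. Maob had -0.41 ± 0.11 (SE; edgeR adjusted p = 0.0888), Slc6a11 -0.22 ± 0.09 (SE; 0.433) and Abat -0.21 ± 0.08 (SE; 0.364).

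In the single mice, the IP over input ratio of Gabbr2 had a median of 1.74 in dependent mice (0.522 to 2.26), 2.00 in non-dependent mice (1.06 to 2.29) and 2.62 in naive mice (2.07 to 4.66). That of Gabbr1 had a median of 1.03 in dependent mice (0.796 to 1.37), 1.28 in non-dependent mice (0.927 to 1.72) and 1.28 in naive mice (1.03 to 1.76). Without batch J the Gabbr2 value of -0.73 did not pass (edgeR adjusted p = 0.209, the highest of 7 alternatives; lowest 0.00114), nor did that of -0.92 without batch L (0.103). The Gabbr1 call was lost in 5 of 7 alternatives, among them the fit without the replicate block (-0.32; adjusted p = 0.453), so it rests on the paired fit of all 4 batches.

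For non-dependent over naive mice the Gabbr2 value was -0.69 ± 0.20 (SE; 95% interval -1.08 to -0.30; edgeR p = 0.00120, adjusted p = 0.517), in a comparison in which edgeR called 0 of 17233 genes and 982 had an unadjusted p under 0.05. For dependent over non-dependent mice 0.151% of genes passed and none of the 5, with Gabbr1 nearest at -0.30 ± 0.07 (SE; edgeR adjusted p = 0.0878).

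Markers of other cell types were set beside these differences. The summed level of the 8 medium spiny neuron markers in IP ran from 1279 to 3946 CPM with a median of 2677 in dependent mice, from 2214 to 4061 with a median of 2905 in non-dependent mice, and from 2199 to 4038 with a median of 3109 in naive mice. Their median log2 fold change was -0.38 for dependent over naive mice, with 1 of 8 called lower. Within batches their mean differed by -0.63 in J, -0.07 in K (2 dependent and 4 naive mice) and -0.29 in L. The summed level of the 11 astrocyte markers in IP overlapped between groups. It ran from 21630 to 27290 CPM with a median of 24730 in dependent mice. In non-dependent mice it ran from 21360 to 26160 with a median of 23720. In naive mice it ran from 22600 to 27820 with a median of 25660 CPM. With the astrocyte minus general neuron marker level of each library as a covariate, the dependent over naive values were -0.93 for Gabbr2 (edgeR adjusted p = 8.90e-08), -0.43 for Gabbr1 (0.000365) and -0.33 for Abat (0.000344). That covariate holds none of the medium spiny neuron markers, so it was not built to adjust for their shift. Of the 11 astrocyte markers, 3 were called higher in IP of dependent over naive mice. The median log2 fold change of the 11 was -0.06. Of 7 oligodendrocyte markers, 1 was called lower, and the 7 microglia markers had a median of 0.37 with none called. Over all genes tested, 2.68% were called higher and 1.81% lower. Transcripts encoded in mitochondria took a median of 0.755% of the counts of an IP library in dependent, 0.682% in non-dependent and 0.943% in naive mice, with overlapping ranges, and of an input library 8.49% in dependent, 8.68% in non-dependent and 10.4% in naive mice. The part of these shares and of the medium spiny neuron and microglia markers in the differences was not tested.

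Females and males did not differ in any of the 5 genes beyond the threshold, and 0.0486% of genes did so in IP and 0.0526% in input. No treatment difference of the 5 differed between the sexes either, in tests in which edgeR called 0 of all genes and between 605 and 1029 genes had an unadjusted p under 0.05. For Gabbr2 the dependent over naive log2 fold change in IP was -0.67 ± 0.15 (SE) in females and -1.11 ± 0.15 (SE) in males, and the female minus male difference was 0.44 ± 0.20 (SE; 95% interval 0.05 to 0.83; edgeR p = 0.0324, adjusted p = 1). Mean levels were 135.6 ± 21.1 CPM in dependent and 216.6 ± 40.3 CPM in naive females (SD, n = 8 each), and 127.0 ± 36.4 CPM in dependent males (n = 8) and 270.6 ± 46.0 CPM in naive males (n = 7). Naive males had the highest mean of these 4 groups.

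The other genes of the pathway, taken from 4 lists, are given by their counts. Of the list of GABA synthesis and transport, 4 genes are described here: Gad1 and Gad2, which make GABA in neurons, Slc32a1, which loads it into synaptic vesicles, and the transporter Slc6a13. All 4 were depleted in IP, as were 45.4% of all genes, and none of the 4 passed in any treatment comparison there. Gad1 had an IP over input log2 fold change of -1.13 ± 0.04 (SE) and Gad2 of -1.34 ± 0.03 (SE). Gad2 averaged 128.5 ± 37.1 CPM in dependent (SD, n = 16), 129.2 ± 21.2 in non-dependent (n = 13) and 126.3 ± 24.5 in naive mice (n = 15) in IP. Its dependent over naive log2 fold change was -0.01 ± 0.12 (SE; edgeR adjusted p = 0.987), and that of Gad1 was -0.26 ± 0.11 (SE; edgeR adjusted p = 0.206).

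All 5 genes of the list of steps after Abat and other enzymes of GABA metabolism were called higher in IP than in input (median log2 fold change 2.61), as were 38.5% of all genes. None passed in a treatment comparison over both sexes in IP. For females, within the fit of both sexes, 1 of the 5 was called lower in dependent than in naive mice, as were 0.403% of all genes. Aldh9a1, an aldehyde dehydrogenase that can form GABA from its aldehyde, had a dependent over naive log2 fold change of 0.06 ± 0.06 (SE). Aldh1a1, a related dehydrogenase, had -0.54 ± 0.23 (SE; edgeR adjusted p = 0.211), with levels that spread from 43.5 to 238.6 CPM in dependent and from 44.6 to 251.6 CPM in naive mice.

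Of 16 tested partners and effectors of the GABA-B receptor, 1 was called lower in IP of dependent over naive mice, as were 1.81% of all genes, and none was called in the other treatment comparisons. A single call says little of the list. It was Pianp, which encodes a membrane protein that binds Gabbr1: 34.1 ± 7.33 CPM in dependent (SD, n = 16), 38.7 ± 7.46 in non-dependent (n = 13) and 41.1 ± 3.89 in naive mice (n = 15), a log2 fold change of -0.31 ± 0.09 (SE; edgeR adjusted p = 0.0390). Pianp itself was depleted in IP (-1.38 ± 0.05, log2, SE), and its value in input was -0.22 ± 0.08 (SE; edgeR adjusted p = 0.139). The G protein subunits Gnai2 and Gnao1, the most abundant of the list in IP, had dependent over naive values of -0.13 ± 0.06 and 0.00 ± 0.07 (SE). Of the 15 partners tested between fractions, 5 were higher in IP, Gnai2, Gnai3, Gnao1, Itpr2 and Kctd12b, and 10 were lower. Of all genes, 38.5% were higher and 45.4% lower.

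Of the 12 genes of monoamine oxidation and of the putrescine route to GABA, 8 were higher and 4 lower in IP than in input, against 38.5% and 45.4% of all genes. In IP, 1 of 12 was called higher for dependent over naive mice and 1 of 12 for dependent over non-dependent mice, against 2.68% and 1.08% of all genes. Aldh2, a mitochondrial aldehyde dehydrogenase, was called higher in IP of dependent over naive mice, with 223.6 ± 61.8 CPM in dependent (SD, n = 16), 218.2 ± 60.0 in non-dependent (n = 13) and 169.4 ± 45.7 in naive mice (n = 15) and a log2 fold change of 0.23 ± 0.07 (SE; edgeR adjusted p = 0.0426). Sat1, which acetylates polyamines, was called higher in IP of dependent over non-dependent mice, with a log2 fold change of 0.60 ± 0.10 (SE; edgeR adjusted p = 0.000738). Its IP level averaged 496.6 ± 110.7 CPM in dependent, 344.0 ± 87.5 in non-dependent and 451.0 ± 75.7 in naive mice, lowest in the non-dependent group. For non-dependent over naive mice, however, none of the 12 genes was called in IP or in input. For dependent over non-dependent mice Sat1 was also called in input (0.37 ± 0.09, SE; edgeR adjusted p = 0.0453). Maoa, the paralog of Maob, had a dependent over naive value of -0.18 ± 0.08 (SE; edgeR adjusted p = 0.210), close to that of Maob.

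**Figure D5:**
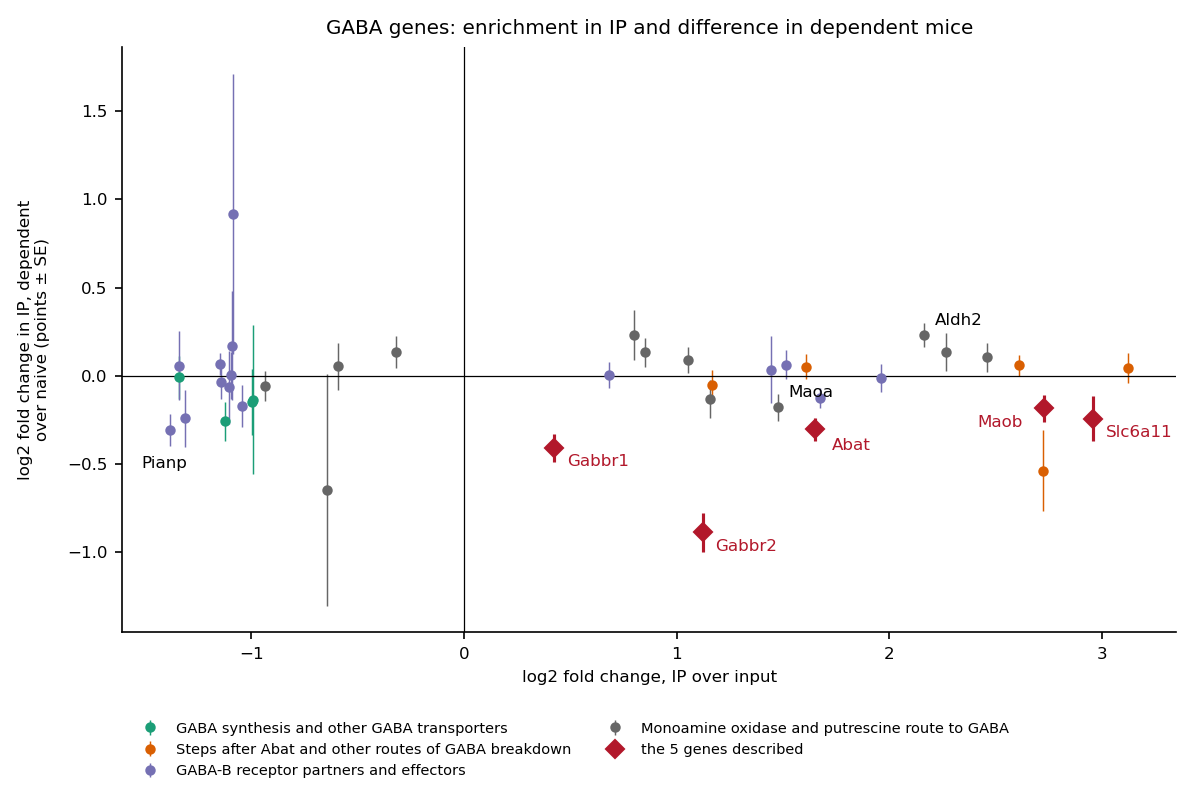
Genes of the 4 lists (circles) and the 5 genes described (diamonds) by its log2 fold change of IP over input (horizontal axis) and of dependent over naive mice in IP (vertical axis, bars are SE). Gabbr2 at -0.89 and Gabbr1 at -0.41 lie below the band around 0 that holds most list genes.

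After treatment, sex and batch were removed, the 5 genes still varied together across mice in part. Over the 44 IP libraries, Gabbr2 and Abat had Pearson's r of 0.66 and Spearman's rho of 0.64 (permutation p = 1e-05 for each, the smallest that 100000 resamples can give; Benjamini-Hochberg adjusted over 10 pairs 0.0001). The r was 0.60 without the 2 mice farthest from the median of Gabbr2, and 0.52, 0.91, 0.64 and 0.76 in batches I, J, K and L. Slc6a11 and Abat had r of 0.51 (rho 0.57; permutation p = 0.0005 and 3e-05; adjusted 0.0025 and 0.00015), r of 0.52 without the 2 farthest mice and 0.36 to 0.85 within batches. Gabbr2 and Slc6a11 had r of 0.46 (rho 0.47; permutation p = 0.00155 and 0.00132; adjusted 0.00517 and 0.0044), r of 0.44 without the 2 farthest mice and 0.28 to 0.81 within batches.

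Maob went the other way, with r of -0.44 to Gabbr2 (rho -0.45; permutation p = 0.00315 and 0.00241; adjusted 0.00787 and 0.00602), r of -0.38 without the 2 farthest mice and -0.60 to -0.23 within batches. Gabbr1 and Abat had r of 0.40 (rho 0.38; permutation p = 0.00794 and 0.0109; adjusted 0.0159 and 0.0219) and r of 0.44 without the 2 farthest mice, but -0.32 in batch L. The subunits Gabbr1 and Gabbr2 showed no such relation, with r of 0.09 (rho 0.07; permutation p = 0.579 and 0.648; adjusted 0.724 and 0.810). In input the sign for Gabbr2 and Abat was the opposite, with r of -0.52 over 47 libraries (rho -0.46; permutation p = 0.00021 and 0.00134; adjusted 0.0021 and 0.0134), r of -0.35 without the 2 farthest mice and -0.64, -0.47, 0.00 and -0.54 in batches I to L. Libraries share their depth and their mix of cells, and the part of these in the relations was not tested.

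By the same residual log2 CPM over the 44 IP libraries, and among 9225 genes with a mean of at least 10 CPM, the genes most like each of the 5 were named as a description. Nearest to Gabbr2 were Flrt1 (r 0.77), Myo10 (0.74) and Rgma (0.73), and none of these was called in a treatment comparison. Nearest to Gabbr1 were Nupr1, Eif5 and Lynx1 (0.74 to 0.75). Of these, Eif5 was called higher in IP of dependent over non-dependent mice (log2 fold change 0.34, edgeR adjusted p = 0.00534). Near to Slc6a11 were Itih3 (0.77) and 2310022B05Rik (0.72). Near to Abat were Xpr1 (0.70) and Pogk (0.69), and nearest to Maob were Anxa6 (0.72), Gfap (0.67) and Asph (0.67). Gfap was called higher in IP of dependent over naive mice (log2 fold change 0.98, edgeR adjusted p = 0.000544), where Maob had -0.18 and was not called.

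The chromosome neighbours of the genes called were looked at in the same dependent over naive IP fit. In that comparison 4.49% of all 20580 genes tested were called. The neighbours counted here were those with a mean of at least 1 CPM. None of the 37 tested genes within 2 Mb of Gabbr2 was called, and its nearest tested neighbours with at least 1 CPM, Tbc1d2 and Anks6, had log2 fold changes of -0.26 ± 0.36 and -0.10 ± 0.25 (SE). Around Gabbr1, 9 of 53 genes were called, 7 of them H2 genes of the major histocompatibility complex, with H2-M3, a near neighbour, at 1.35 ± 0.39 (SE; edgeR adjusted p = 0.0350) and Mog, on the other side, at -0.03 ± 0.15 (SE). Around Abat, 2 of 15 were called, and its neighbours Mettl22 and Tmem186 had 0.06 ± 0.12 and 0.03 ± 0.10 (SE). The H2 genes have near-identical copies, among which reads may have been split.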

How the data were processed

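RNA of nucleus accumbens punches was sequenced from 95 libraries of 49 mice, prepared with the SMART-Seq PLUS kit of Takara per the labels' protocols; 46 mice have an IP and an input library and 3 the input alone. The values used are gene counts as the authors deposited them, not normalized, in 1 table of 55471 features. FastQC 0.11.9, Trimmomatic 0.39, STAR 2.7.10b and the GRCm38 genome are named in the submitters' processing notes; how reads were counted, on which annotation and with or without strand, is not given in the sources used here. Symbols, positions and exon lengths came from GENCODE M21 on GRCm38 (55230 features matched; the 241 others held 0.00249% of counts). Of 40 list genes 39 matched, and Jakmip1 was not analysed here.

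Counts were tested in R 4.3.3 with edgeR 4.0.16 (quasi-likelihood F test, TMM, filterByExpr with minimum count 10 and total 15, robust dispersion), and a call means a Benjamini-Hochberg adjusted p, over all genes, of at most 0.05; all 5 genes passed the filter in every fit. Each fraction had 1 fit, with 1 coefficient per treatment and sex plus batch (I to L; the only mouse of batch C and that of batch G, both dependent females, entered the IP over input fit and an alternative). Treatment differences average those of females and males. Fits across fractions had the mouse as a block (46 mice, or 44 in batches I to L), with the dispersion taken from the top 5% of genes by abundance. SEs came from the F statistic, and 95% intervals are 1.96 SE to each side. CPM levels and ratios are counts scaled to a library total of 1000000, without TMM or batch adjustment. Scripts were tested on simulated data.

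Per the labels, the 2 libraries of a mouse form a pair. In a check, deviations from the group means correlated within a mouse with a median of 0.641 over 9507 genes, against 0.453 for other mice of the batch, and over 0.1 in 45 of 46 mice (K15: -0.327). No 2 columns were identical. Alternatives were DESeq2 1.42.0, limma 3.58.1 with voom, DESeq2 size factors, no filter on low counts, no batch term, a composition covariate (astrocyte minus neuron marker level), no replicate block and leaving out batches. Leaving out mouse K15, leaving out batches in the test across fractions and another filter were added after the data were seen. The 5 genes and the lists were chosen with earlier results of these data known. Besides the 5, the text names list genes called in IP, the 2 of each list with the highest IP level, the 3 genes most like each of the 5, and the chromosome neighbours of called genes; some genes that these rules name are not reported here. Names given beyond these, among them Maoa, Gad1, Slc32a1, Slc6a13 and the partners higher in IP, were chosen after their values were seen.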

Additional observations from a re-analysis of the deposited data

Results flagged for a closer look

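In 4 of 60 groups of libraries (each gene by fraction, treatment and sex), 1 library stood apart from the others by Dixon's test at its 95% critical value. That value is set to flag 1 in 20 groups drawn from a single normal spread. The groups here pool the libraries of batches I to L, and the part of batch in the flags was not tested. All 4 were input libraries of batch I. Gabbr2 was at 161.1 CPM in the dependent male I15, with the next of 8 males at 101.1 CPM. Slc6a11 was at 79.6 CPM in the dependent female I05 (next of 8 females 44.4 CPM), at 77.1 CPM in the dependent male I07 (next of 8 males 47.6 CPM) and at 120.5 CPM in the non-dependent male I10 (next of 7 males 51.7 CPM). No IP value of the 5 genes was set apart in this way.

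The dependent over naive difference was not the same in the 2 fractions for Gabbr2 and Gabbr1, by edgeR's quasi-likelihood test of the difference itself. It was lower in IP than in input by -0.92 (log2; adjusted p = 0.00306) for Gabbr2 and by -0.31 (adjusted p = 0.04999) for Gabbr1.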

How the results depend on the processing

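In IP, Gabbr2 and Gabbr1 stayed lower in dependent than in naive mice and past the threshold in all 12 alternatives, with log2 fold changes from -0.996 to -0.820 and from -0.50 to -0.32. Gabbr2 of non-dependent over naive mice passed in 11 of 12, and without batch J it was -0.69 (edgeR adjusted p = 0.0721), which left 0 of the 5 genes called. Abat of dependent over naive mice passed in 9 of 12; it was -0.32 in batches J and K alone, -0.30 without batch J and -0.31 without batch L. Gabbr1 of dependent over non-dependent mice passed with DESeq2 (-0.26), with no filter on low counts (-0.26) and with the composition covariate (-0.33), which made 1 gene called in each. All IP over input values kept their sign and call in 8 alternatives. The cause of these shifts was not tested.

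In the test across fractions for dependent over naive mice, without the replicate block Gabbr1 was at -0.32 (edgeR adjusted p = 0.453), and 1 of the 5 genes was called. Gabbr1 also missed the threshold without batch I (-0.33), J (-0.29), K (-0.26) and L (-0.37), and Gabbr2 without batch J (-0.73) and L (-0.92). This left 1 gene called without batch I, 0 without J, 1 without K and 0 without L. The block changed no other call of the 5 genes.

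Some uncalled values changed sign, none of them past the threshold. In IP, Slc6a11 of dependent over non-dependent mice was 0.017 with no batch term and 0.009 without mouse K15, and Maob of non-dependent over naive mice was 0.0023 with no batch term and 0.0178 without batch J. In input of dependent over naive mice, Gabbr2 was -0.0157 with limma voom and -0.11 without batch J, and Slc6a11 was 0.0858 with no batch term and 0.0296 in batches J and K alone. In input of dependent over non-dependent mice with no batch term, Gabbr1 was -0.0107, Maob -0.0109 and Abat -0.0006. There Slc6a11 was 0.12 in batches J and K alone and 0.11 without batch I. Without batch J, Gabbr1 was -0.0005, Gabbr2 -0.0457 and Abat -0.0114; Maob was -0.0065 without batch K and -0.01 without batch L. With the composition covariate, Gabbr1 was -0.009, Abat -0.0417 and Maob -0.0052, and Gabbr1 was -0.0053 without mouse K15. In input of non-dependent over naive mice, Gabbr2 was 0.0173 with no batch term and 0.0361 without batch K. There Slc6a11 was 0.28 with no batch term, 0.0069 without batch K, 0.0059 without batch L and 0.0209 with the composition covariate. Between fractions, Gabbr1 of non-dependent over naive mice was 0.0155 without batch I and 0.0239 without batch K.

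The number of genes called over the whole table moved more. In IP it was 925 for dependent over naive mice (235 to 1447 over 12 alternatives), 314 for dependent over non-dependent mice (0 to 684) and 88 for non-dependent over naive mice (15 to 481), lowest in batches J and K alone and highest with no filter on low counts. In input it was 451 (17 to 709), 79 (0 to 119) and 25 (8 to 77) in these comparisons, and between fractions 85 (13 to 89), 26 (0 to 41) and 0 (0 to 1).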
